A study of Rattus norvegicus with 14 samples.

Results

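Alpha- and beta-tubulin form the heterodimers from which microtubules are built, and rat cells draw them from a family of closely related genes called isotypes. The set described here holds 10 isotypes named by gene symbol, of which 7 had a named probe set among the 13184 genes measured. These were the beta-tubulins Tubb2a, Tubb2b, Tubb3, Tubb5 and Tubb6 and the alpha-tubulins Tuba4a and Tuba8. The expression of Tuba1a, Tuba1b and Tuba1c was not analysed here. The 7 isotypes carried 10 probe sets, 1 for each of 4 isotypes and several for the other 3, and the brightest probe set of each gene over all arrays was its main value.

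The cells were neonatal rat ventricular myocytes (NRVM), cultured heart muscle cells from 2-day-old Sprague-Dawley pups, pre-plated to remove non-myocytes and kept without serum. The 14 Affymetrix rat arrays fell into 5 groups. JQ1 plus phenylephrine (PE, 100 µM) was measured after 6 h and 48 h, with 3 arrays each. Vehicle (DMSO) plus PE was measured after 6 h, with 2 arrays, and after 48 h, with 3, and a last group of 3 arrays had DMSO for 90 min and no PE. JQ1 inhibits the BET family, bromodomain proteins that bind acetylated histones and help transcription, and PE stimulates alpha1-adrenergic receptors and drives hypertrophic growth of these cells. The sources disagree on whether JQ1 or PE was added first and give no JQ1 concentration. As nothing says that arrays came from separate cultures, p-values reflect only how these arrays scatter, and that scatter may be technical.

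In heart muscle cells microtubules form a cage around the nucleus and run between the sarcomeres, and they become denser in hypertrophy and resist contraction. Isotypes differ mostly in the acidic tail that enzymes modify by removing tyrosine or adding glutamate. Cells also adjust tubulin mRNA to the pool of free dimers: a factor that reads the first residues of nascent tubulin, TTC5, recruits SCAPER and the CCR4-NOT deadenylase to degrade the message. In dividing cells the same proteins build the mitotic spindle.

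The promoters of the 4 isotypes with the smallest adjusted p among those lower with JQ1 at 48 h, and of Tubb3, which was higher, are shown to let their start regions be compared. Each runs from 250 bases before to 50 bases after the start in RefSeq (GRCr8), and all 10 isotypes had an entry. Capitals mark the letters CCAAT and GGGCGG or their reverse complements ATTGG and CCGCCC. Tubb2a lies at chr17:31001936-31002235 (plus strand), Tubb6 at chr18:63213037-63213336 (plus), Tuba4a at chr9:84162535-84162834 (minus), Tubb5 at chr20:2917327-2917626 (plus) and Tubb3 at chr19:68365437-68365736 (plus).
Tubb2a: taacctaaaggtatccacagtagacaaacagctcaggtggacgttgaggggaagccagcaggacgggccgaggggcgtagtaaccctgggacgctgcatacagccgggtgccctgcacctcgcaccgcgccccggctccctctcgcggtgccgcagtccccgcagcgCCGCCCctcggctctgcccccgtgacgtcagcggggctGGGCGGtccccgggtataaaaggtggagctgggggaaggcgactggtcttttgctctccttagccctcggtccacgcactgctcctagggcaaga
Tubb6: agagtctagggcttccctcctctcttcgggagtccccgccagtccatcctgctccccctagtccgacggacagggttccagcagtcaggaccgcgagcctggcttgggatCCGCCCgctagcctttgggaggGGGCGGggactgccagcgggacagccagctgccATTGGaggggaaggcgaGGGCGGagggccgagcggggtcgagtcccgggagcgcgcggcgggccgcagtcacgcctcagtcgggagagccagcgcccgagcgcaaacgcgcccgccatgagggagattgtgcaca
Tuba4a: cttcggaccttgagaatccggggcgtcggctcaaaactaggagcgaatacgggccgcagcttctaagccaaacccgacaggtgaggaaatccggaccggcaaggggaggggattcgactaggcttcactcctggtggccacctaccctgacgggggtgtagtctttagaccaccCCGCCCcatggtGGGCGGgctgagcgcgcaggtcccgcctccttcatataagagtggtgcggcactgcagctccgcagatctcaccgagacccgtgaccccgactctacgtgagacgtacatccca
Tubb5: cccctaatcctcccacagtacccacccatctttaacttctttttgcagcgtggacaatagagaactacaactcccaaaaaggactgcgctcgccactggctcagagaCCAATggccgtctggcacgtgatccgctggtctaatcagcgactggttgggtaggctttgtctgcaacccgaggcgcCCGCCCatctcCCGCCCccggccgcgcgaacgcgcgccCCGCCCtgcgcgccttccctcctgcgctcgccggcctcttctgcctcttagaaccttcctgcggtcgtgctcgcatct
Tubb3: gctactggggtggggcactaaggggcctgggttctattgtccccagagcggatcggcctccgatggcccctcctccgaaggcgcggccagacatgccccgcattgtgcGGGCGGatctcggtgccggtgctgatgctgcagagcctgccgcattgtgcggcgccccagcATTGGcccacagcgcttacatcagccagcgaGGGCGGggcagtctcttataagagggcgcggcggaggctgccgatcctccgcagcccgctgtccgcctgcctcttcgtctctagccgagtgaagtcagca
On either strand, CCAAT stood in 7 of the 10 isotype promoters and in 37.7% of 27457 rat promoters of the same length. GGGCGG stood in 8 of 10 and in 34.9% of all. These counts include Tuba1a, Tuba1b and Tuba1c, which each held CCAAT and GGGCGG and have no expression result here. TATAAA stood only in the promoter of Tubb2a, against 14.3% of all, and the CArG box read by serum response factor in 0 of 10, against 1.64% of all. No marked letters overlapped. Of the promoters shown, Tubb6 (85 bases before the start), Tubb3 (81 bases) and Tubb5 (143 bases) each held 1 CCAAT, and Tubb2a and Tuba4a held 0. Tubb6 and Tubb5 held 3 GGGCGG each, and Tubb2a, Tuba4a and Tubb3 held 2 each. These matches describe the letters only.

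After 48 h with PE, JQ1 lowered 6 of the 7 measured isotypes and raised 1 against DMSO. Tubb2a fell most, by 1.08 on the log2 scale (2.11-fold), followed by Tubb6, Tuba4a, Tubb5 and Tuba8, and Tubb2b fell least. Only Tubb3 rose among the 7. The test was limma over all 13184 genes with Benjamini-Hochberg adjustment and a threshold of 0.05. It called 59.6% of all genes in this comparison, 30% higher and 29.6% lower, so a call alone was common. The median log2 difference of the isotypes was -0.69, against 0.02 over all genes. Of all calls 50.4% were higher, or 62.3% when each array was centred on its median, a step that moved the median difference of all genes by 0.089. In cultured cell populations such as these, fewer cells of a type and less RNA per cell cannot be told apart.

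Tubb2a is a class II beta-tubulin, broadly expressed and abundant in brain. It stood at 10.59, 10.58 and 10.62 (log2 value) in the JQ1 arrays at 48 h and at 11.72, 11.65 and 11.65 in the DMSO arrays. Every JQ1 array lay about 1 log2 unit under every DMSO array, and the difference was -1.08 ± 0.035 (SE, limma adjusted p = 5.5e-11).

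Tubb6 is the class V beta-tubulin, known in mouse skeletal muscle to rise in regenerating and dystrophic fibres and to disorganise their microtubules. At 48 h its log2 values were 10.64, 10.51 and 10.59 with JQ1 and 11.41, 11.37 and 11.37 with DMSO. The groups did not overlap, and Tubb6 fell by 0.80 (SE 0.042, limma adjusted p = 3.7e-09). Averaging its probe sets, of which the second is dim, gave -0.44.

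Tuba4a is an alpha-tubulin whose gene does not encode the final tyrosine, so that it enters the polymer without needing to lose one. It stood at 12.36, 12.35 and 12.40 with JQ1 and at 13.10, 13.04 and 13.04 with DMSO at 48 h, without overlap. The difference was -0.69 ± 0.039 (limma adjusted p = 8.2e-09). Tuba8, a divergent alpha-tubulin known from mouse muscle and testis, differed by the same amount with more scatter. Its values were 6.94, 7.38 and 7.27 with JQ1 and 7.92, 7.82 and 7.91 with DMSO. The first JQ1 array was the low one, and the difference of -0.69 ± 0.091 (limma adjusted p = 2.1e-05) became -0.56 without it (adjusted p = 6.2e-06).

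Tubb5, the class I beta-tubulin that dividing cells use widely, stood at 11.80, 11.82 and 11.75 with JQ1 and at 12.47, 12.50 and 12.48 with DMSO at 48 h. The groups were far apart relative to their scatter, with a difference of -0.69 ± 0.031 (limma adjusted p = 9.9e-10), or -0.45 over the mean of its probe sets. Tubb2b, a class II beta-tubulin needed in the developing brain, stood at 9.13, 9.15 and 9.08 with JQ1 and at 9.40, 9.35 and 9.17 with DMSO. The third DMSO array came close to the JQ1 arrays. Its fall of 0.19 (SE 0.058, limma adjusted p = 0.0133) no longer passed after centring each array on its median (-0.10, adjusted p = 0.179) or without the first DMSO array (-0.14, adjusted p = 0.066).

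Tubb3, the class III beta-tubulin used as a marker of neurons, stood at 7.75, 7.93 and 7.87 with JQ1 and at 7.54, 7.61 and 7.46 with DMSO at 48 h. All JQ1 arrays were the higher ones, and the difference was 0.31 ± 0.066 (limma adjusted p = 0.00112).

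**Figure D1:**
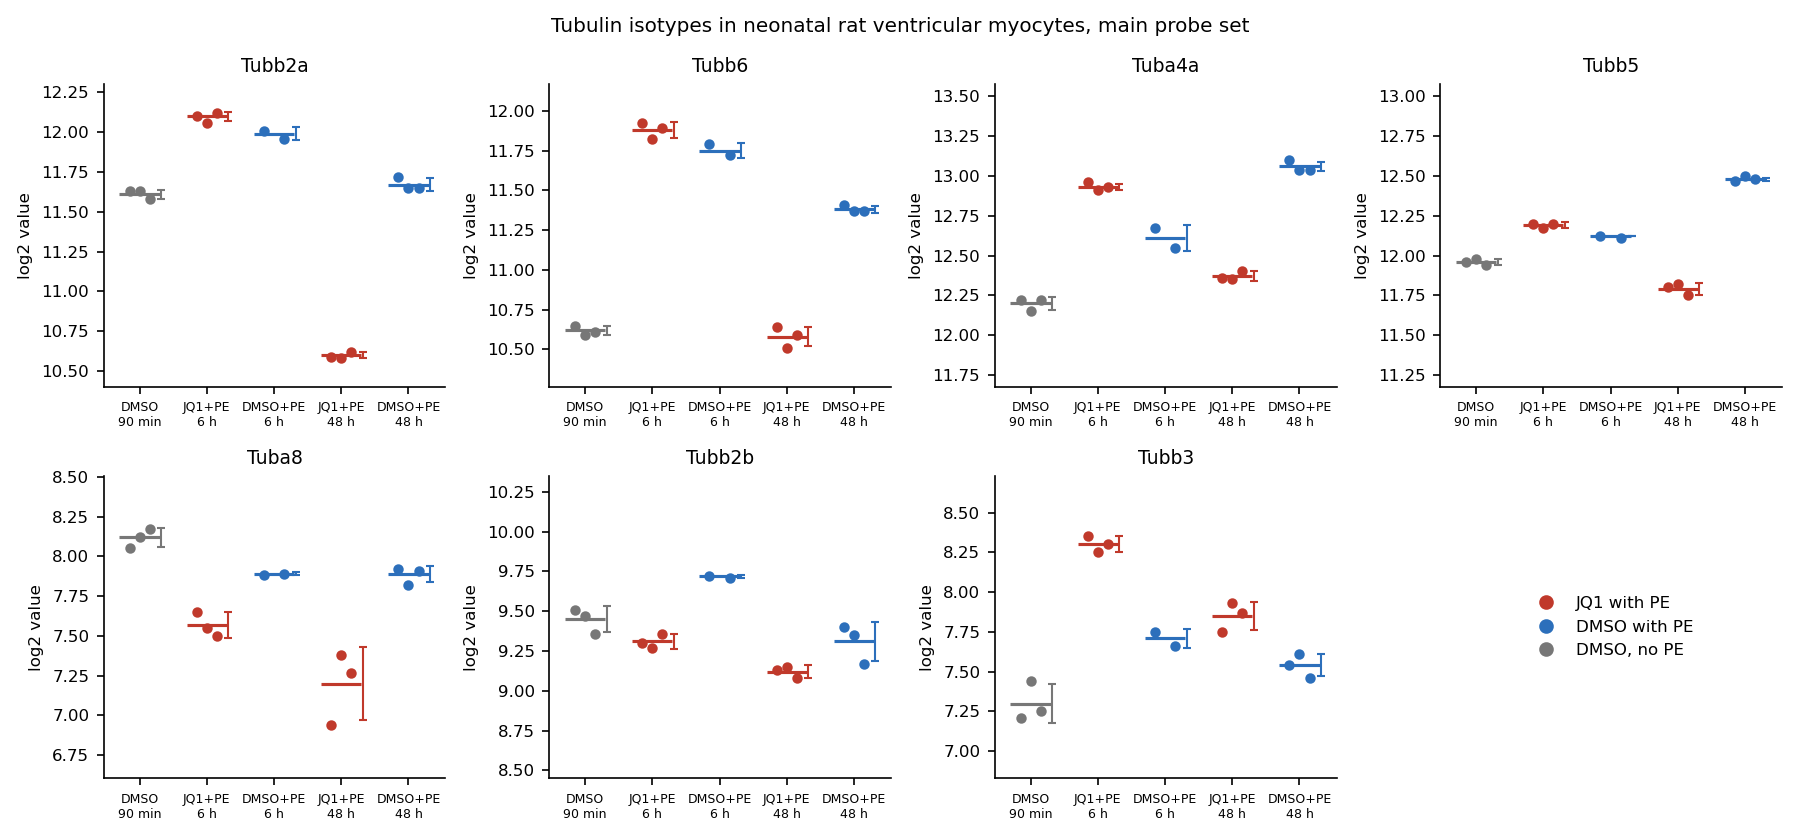
Log2 values of the main probe set of the 7 measured tubulin isotypes, 1 panel each, with 1 point per array, a line at the group mean and a bar of 1 SD. JQ1 with PE is red, DMSO with PE is blue and DMSO without PE at 90 min is grey. At 48 h the JQ1 mean lies below the DMSO mean in 6 panels and above it in the Tubb3 panel. The test called 59.6% of all genes in this comparison. The vertical axes span the same number of log2 units but start at different levels.

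At 6 h the picture was different: JQ1 raised 4 isotypes and lowered 2, and 1 did not pass the test. The largest rise was that of Tubb3, at 0.59 on the log2 scale (1.51-fold), and the largest fall that of Tubb2b, at 0.41. All genes were called at 54.3% in this comparison, 25.5% higher and 28.8% lower. The median of the isotypes was 0.11, against 0.00 over all genes. Of all calls 47.0% were higher, or 60.1% after centring on the array median, which moved the median of all genes by 0.085. Only 2 DMSO arrays entered, so each of them weighs heavily.

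Tubb3 stood at 8.35, 8.25 and 8.30 with JQ1 and at 7.75 and 7.66 with DMSO at 6 h. The groups lay well apart, with a difference of 0.59 ± 0.074 (limma adjusted p = 1.8e-05), or 0.26 over the mean of both its probe sets. Tuba4a also rose, with 12.96, 12.91 and 12.93 in the JQ1 arrays and 12.67 and 12.55 in the DMSO arrays. Its difference was 0.32 ± 0.044 (limma adjusted p = 3.6e-05), the opposite direction to 48 h.

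Tubb2a and Tubb6 moved little at 6 h. Tubb2a stood at 12.10, 12.06 and 12.12 with JQ1 and at 12.01 and 11.96 with DMSO, a difference of 0.11 ± 0.039 (limma adjusted p = 0.0325). Tubb6 stood at 11.92, 11.82 and 11.89 with JQ1 and at 11.79 and 11.72 with DMSO, a difference of 0.13 ± 0.047 (limma adjusted p = 0.0353). Neither pair of groups overlapped, but both calls were lost when certain single arrays were left out. Without the second DMSO array the values were 0.08 (adjusted p = 0.193) for Tubb2a and 0.09 (0.219) for Tubb6. Without the first JQ1 array their adjusted p were 0.0731 and 0.106 in the same order, without the third JQ1 array 0.0898 and 0.0822, and with only the groups compared 0.114 and 0.103.

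Tubb5 stood at 12.20, 12.17 and 12.20 with JQ1 and at 12.12 and 12.11 with DMSO at 6 h. Its difference of 0.08 (95% interval 0.00 to 0.15) missed the threshold (limma adjusted p = 0.0856), although it passed after centring (0.16, adjusted p = 0.00533), with the mean of its probe sets (0.13, 0.0228), without dim genes (0.08, 0.049) and with a trended robust fit (0.08, 0.0256).

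Tubb2b and Tuba8 were already lower at 6 h. Tubb2b stood at 9.30, 9.27 and 9.36 with JQ1 and at 9.72 and 9.71 with DMSO, and fell by 0.41 (SE 0.065, limma adjusted p = 1.5e-04). Tuba8 stood at 7.65, 7.55 and 7.50 with JQ1 and at 7.88 and 7.89 with DMSO, and fell by 0.32 (SE 0.101, limma adjusted p = 0.0171). Neither pair of groups overlapped. The call on Tuba8 was lost after centring (-0.23, adjusted p = 0.0701), without either DMSO array (0.0637 and 0.0724 without the first and the second) and without the third JQ1 array (0.0547).

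The difference between the JQ1 effects at the 2 times was tested directly, as the JQ1 effect at 48 h minus that at 6 h. It was negative and past the threshold for 6 of the 7 isotypes and positive for 0, with 38.8% of all genes called, 20.4% with a positive and 18.3% with a negative difference. The median was -0.77 for the isotypes and 0.01 for all genes. Tubb2a had the largest difference of effects, -1.19 ± 0.053 (limma adjusted p = 7.4e-09). Tuba4a followed with -1.01 ± 0.059 (6.3e-08). Its effect changed sign between the times, as did those of Tubb2a and Tubb6, whose rises at 6 h were small (0.11 and 0.13). Tubb6 differed by -0.93 ± 0.063 (2.3e-07) and Tubb5 by -0.77 ± 0.047 (1.0e-07).

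The other 3 isotypes were closer to the threshold. For Tuba8, which was lower with JQ1 at both times, the effects differed by -0.37 ± 0.136 (limma adjusted p = 0.0474). For Tubb3, which was higher with JQ1 at both times, they differed by -0.28 ± 0.099 (limma adjusted p = 0.0402). Both calls were lost under several settings: 4 of 14 fits that left out 1 array kept that of Tuba8 and 7 of 14 kept that of Tubb3. Without the first JQ1 array at 48 h the values were -0.24 for Tuba8 and -0.23 for Tubb3, and with the mean of its probe sets Tubb3 differed by -0.01 (adjusted p = 0.963). Tubb2b differed the other way without passing, by 0.22 ± 0.087 (limma adjusted p = 0.0666).

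**Figure D2:**
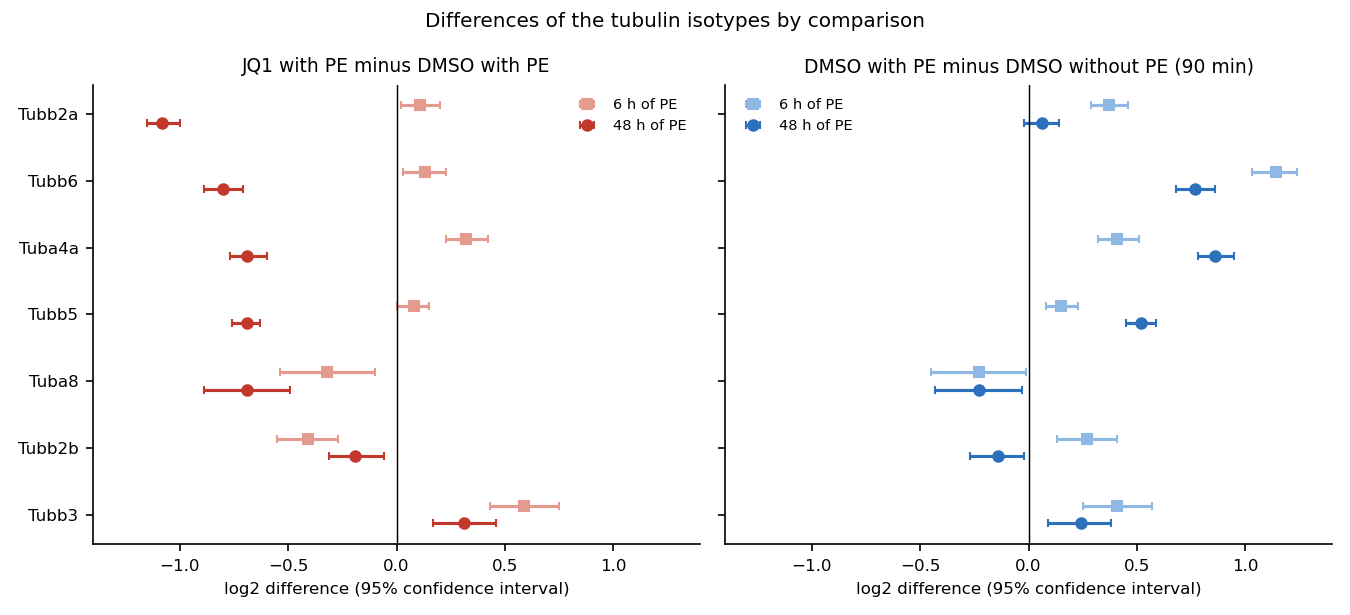
Log2 differences of the 7 isotypes with 95% confidence intervals, for JQ1 with PE minus DMSO with PE (left) and for DMSO with PE minus DMSO without PE at 90 min (right). Pale squares are 6 h of PE and dark circles 48 h. On the left, Tubb2a, Tubb6, Tuba4a and Tubb5 are at or above 0 at 6 h and between -1.08 and -0.69 at 48 h. On the right, no interval of a called isotype lies below 0.

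The next comparisons ask what PE did to the isotypes in vehicle. Cells without PE were collected at 90 min, which makes PE and time change at once, and these comparisons share the DMSO with PE arrays with the JQ1 comparisons. At 6 h 6 of the 7 isotypes were higher than at 90 min without PE and 0 were lower, with 37.2% of all genes called, 18.3% higher and 18.9% lower. The median was 0.37 for the isotypes and 0.01 for all genes. At 48 h 4 were higher and 0 lower, with 44.1% of all genes called, 21.4% higher and 22.6% lower, and medians of 0.24 and 0.01.

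Tubb6 stood at 11.79 and 11.72 with PE at 6 h and at 10.65, 10.59 and 10.61 without PE. Its difference at 6 h was 1.14 ± 0.047 (2.2-fold, limma adjusted p = 4.2e-09), and at 48 h it was 0.77 ± 0.042 (2.2e-08). Over the mean of its probe sets these values were 0.60 and 0.50, both past the threshold. From 6 h to 48 h of PE in vehicle 2 isotypes rose and 3 fell, with 34.6% of all genes called, 16.3% higher and 18.4% lower. Tubb6 fell by 0.37 (SE 0.047, limma adjusted p = 6.1e-05), or by 0.10 over the mean of its probe sets (adjusted p = 0.206). Tubb2a was also higher at 6 h, with 12.01 and 11.96 with PE against 11.63, 11.63 and 11.58 without, a difference of 0.37 ± 0.039 (limma adjusted p = 1.2e-05). At 48 h it differed from the cells without PE by 0.06 (95% interval -0.02 to 0.14, limma adjusted p = 0.197), and it was 0.31 ± 0.039 lower than at 6 h (6.3e-05).

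On their main probe sets Tuba4a and Tubb5 had their highest vehicle values at 48 h. Tuba4a had stood at 12.22, 12.15 and 12.22 at 90 min without PE. With PE it was higher by 0.41 ± 0.044 at 6 h (limma adjusted p = 1.2e-05) and by 0.86 ± 0.039 at 48 h (4.5e-09), and the later time exceeded the earlier by 0.45 ± 0.044 (7.0e-06). Tubb5 had stood at 11.96, 11.98 and 11.94 at 90 min without PE. With PE it was higher by 0.15 ± 0.035 at 6 h (limma adjusted p = 0.00422, lost with only the groups compared at 0.0602) and by 0.52 ± 0.031 at 48 h (5.2e-08), and 48 h exceeded 6 h by 0.37 ± 0.035 (6.1e-06). Over the mean of its probe sets Tubb5 was higher by 0.33 at 48 h than without PE and by 0.18 than at 6 h, both past the threshold. Its second probe set alone did not differ detectably between 6 h and 48 h with PE (-0.00, limma adjusted p = 0.971). On the main probe sets neither gene's groups overlapped between any of these times.

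Tubb2b passed the test with PE at 6 h and not at 48 h, and Tubb3 passed at both times. Tubb2b stood at 9.51, 9.47 and 9.36 without PE, was higher by 0.27 ± 0.065 at 6 h (limma adjusted p = 0.0057) and differed by -0.14 ± 0.058 at 48 h (0.0622), where its groups overlapped. From the earlier to the later time with PE it was lower by 0.41 (SE 0.065, limma adjusted p = 3.4e-04). Tubb3 stood at 7.21, 7.44 and 7.25 without PE and was higher by 0.41 ± 0.074 at 6 h (limma adjusted p = 8.0e-04) and by 0.24 ± 0.066 at 48 h (0.011). With the mean of its probe sets the values were 0.18 (adjusted p = 0.052) and 0.03 (0.733), and the call at 48 h was lost without the first array without PE (0.19, 0.0508).

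Tuba8 was the isotype whose mean was highest without PE, at 8.05, 8.12 and 8.17. With PE it differed by -0.23 ± 0.101 at 6 h (limma adjusted p = 0.0985) and by -0.23 ± 0.091 at 48 h (0.059). Its groups did not overlap, and its difference passed with only these groups in the fit (adjusted p = 0.0265 at 6 h and 0.00818 at 48 h) and without the scattered first JQ1 array at 48 h (0.0097 and 0.00432). The 2 times with PE did not differ detectably (0.00, 95% interval -0.22 to 0.22, adjusted p = 0.991).

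JQ1 with PE at 48 h was also set against the cells without PE. Here 2 isotypes were higher and 4 lower, with 60.8% of all genes called, 31.6% higher and 29.2% lower. Of all calls 52.0% were higher, or 65.5% after centring, which moved the median of all genes by 0.100. Tubb2a was 1.02 lower than without PE (SE 0.035, limma adjusted p = 1.0e-10) and Tuba8 0.92 lower (SE 0.091, 1.6e-06). Tubb6 differed by -0.04 (95% interval -0.13 to 0.05, adjusted p = 0.486), with overlapping arrays, and by 0.06 after centring or over the mean of its probe sets. Tubb5 fell by 0.17 (SE 0.031, adjusted p = 3.3e-04), which did not pass after centring (-0.07, 0.0984), and Tubb2b by 0.33 (SE 0.058, 2.6e-04). Tuba4a stayed 0.17 ± 0.039 higher (adjusted p = 0.0018) and Tubb3 0.55 ± 0.066 higher (1.0e-05), or 0.28 over the mean of its probe sets.

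At 6 h JQ1 with PE gave 5 isotypes higher and 1 lower than without PE, with 62.6% of all genes called, 30.9% higher and 31.7% lower, a share of higher calls of 49.3%, or 61.2% after centring (median shift 0.088). Tubb6 was higher by 1.26, Tubb3 by 1.00, Tuba4a by 0.74, Tubb2a by 0.48 and Tubb5 by 0.23, Tuba8 was lower by 0.55, and Tubb2b differed by -0.14 (limma adjusted p = 0.0555). Over the mean of their probe sets Tubb6 was higher by 0.79 and Tubb3 by 0.44. From 6 h to 48 h within JQ1 all 7 measured isotypes were lower, with 53.6% of all genes called, 27.2% higher and 26.4% lower. The later time was lower by 1.50 for Tubb2a and 1.30 for Tubb6, and by 0.19 to 0.56 for the other 5. Over the mean of their probe sets Tubb6 differed by -0.74 and Tubb3 by -0.16. Only the call on Tubb2b (-0.19 ± 0.058, limma adjusted p = 0.0125) was lost in any fit that left out 1 array, without the third JQ1 array at 6 h (-0.17, 0.0513).

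The order of the group means differed between isotypes. Tubb2a ran from 12.10 (JQ1 6 h) through 11.99 (DMSO 6 h), 11.67 (DMSO 48 h) and 11.61 (no PE) to 10.60 (JQ1 48 h). Its range of 1.50 log2 units exceeded that of 93.0% of genes, whose median range was 0.46. Tubb6 ran from 11.88 (JQ1 6 h) through 11.75 (DMSO 6 h), 11.38 (DMSO 48 h) and 10.62 (no PE) to 10.58 (JQ1 48 h), a range of 1.30. In Tubb2a the means of DMSO at 48 h and no PE were not separated by the test, and in Tubb6 those of no PE and JQ1 at 48 h.

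Tuba4a ran from 13.06 (DMSO 48 h) through 12.93 (JQ1 6 h), 12.61 (DMSO 6 h) and 12.37 (JQ1 48 h) to 12.20 (no PE), and no neighbours in this order overlapped. Tubb5 ran from 12.48 (DMSO 48 h) through 12.19 (JQ1 6 h), 12.12 (DMSO 6 h) and 11.96 (no PE) to 11.79 (JQ1 48 h), with JQ1 and DMSO at 6 h not separated by the test. On their main probe sets both thus peaked in vehicle at 48 h, whereas Tubb2a, Tubb6 and Tubb3 peaked with JQ1 at 6 h. The second probe set of Tubb5, which was not dim, instead averaged highest with JQ1 at 6 h (11.10, against 10.90 with DMSO at 48 h).

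Tuba8 ran from 8.12 (no PE) through 7.89 in both DMSO groups with PE and 7.57 (JQ1 6 h) to 7.20 (JQ1 48 h), with its first 3 means not separated. Tubb2b ran from 9.72 (DMSO 6 h) through 9.45 (no PE) and 9.31 in both DMSO at 48 h and JQ1 at 6 h to 9.12 (JQ1 48 h), and neither of the 2 groups at 9.31 was separated by the test from no PE. Tubb3 ran from 8.30 (JQ1 6 h) through 7.85 (JQ1 48 h), 7.71 (DMSO 6 h) and 7.54 (DMSO 48 h) to 7.30 (no PE), and the arrays of its JQ1 group at 48 h and its DMSO group at 6 h touched at 7.75, while its DMSO groups at 6 h and 48 h were not separated by the test. The ranges were 0.92 for Tuba8, 0.60 for Tubb2b, 1.00 for Tubb3, 0.86 for Tuba4a and 0.69 for Tubb5.

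The isotypes with several probe sets disagreed in part between them. The main probe set of Tubb3 (1371618_s_at) carries the suffix that marks probes matching more than 1 transcript, and its other probe set (1369901_at) lay under the limit used for dim probe sets (log2 6.23), with group means from 4.20 to 4.40. That second probe set passed the test in no comparison: with JQ1 at 48 h it differed by 0.20 (limma adjusted p = 0.0984) and at 6 h by -0.07 (0.631). The direction given for Tubb3 thus rests on its main probe set alone.

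The second probe set of Tubb5 (1370290_at) was well above the dim limit. Its log2 difference was smaller than that of the main one (1387892_at) with JQ1 at 48 h and larger with JQ1 at 6 h, which was not tested. With JQ1 it fell by 0.20 at 48 h (SE 0.062, limma adjusted p = 0.0153) and rose by 0.19 at 6 h (SE 0.069, 0.0369), and the effects differed by -0.39 (0.00576). With PE it showed 0.14 at 6 h (adjusted p = 0.144) and 0.14 at 48 h (0.0987), without passing. The second probe set of Tubb6 (1394144_at) was dim, with group means from 4.75 to 5.08. It rose by 0.26 with JQ1 at 6 h (SE 0.075, limma adjusted p = 0.0109) and differed by -0.09 at 48 h (0.316). RefSeq lists Tubb2b among the older names of Tubb2a. Tubulin coding sequences are very similar, and binding of 1 isotype's RNA to the probes of another was not tested.

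**Figure D3:**
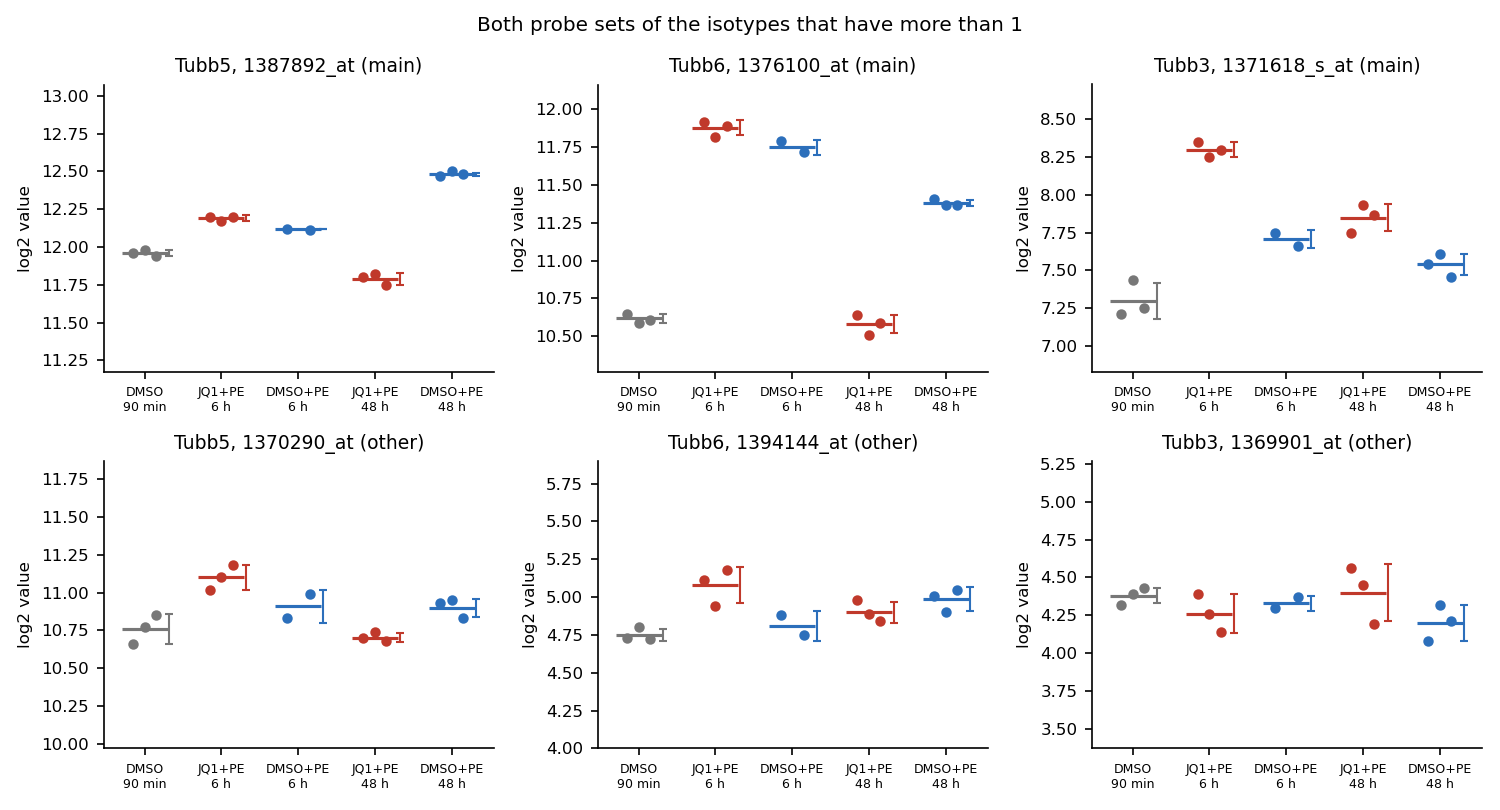
Log2 values of the main (top) and the other probe set (bottom) of Tubb5, Tubb6 and Tubb3, with 1 point per array, a line at the group mean and a bar of 1 SD. JQ1 with PE is red, DMSO with PE is blue and DMSO without PE is grey. The other probe sets of Tubb6 and Tubb3 stay under the dim limit of 6.23 in every group, and all panels span the same number of log2 units.

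Of 6 further alpha- and beta-tubulin genes looked for, 3 were measured and 1 of them, Tubb4b, passed in the main comparisons. Tubb4b, a class IV beta-tubulin of dividing and ciliated cells, averaged 12.85 with JQ1 and 13.33 with DMSO at 48 h, a fall of 0.49 (SE 0.043, limma adjusted p = 5.8e-07). At 6 h it averaged 13.41 with JQ1 and 12.98 with DMSO, a rise of 0.43 (SE 0.048, 7.2e-06). Its effect therefore changed sign between the times as those of Tuba4a, Tubb2a and Tubb6 did.

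Among genes that build and modify the microtubule, rises and falls were mixed. The test called 59.6% of all genes at 48 h and 54.3% at 6 h, and the shares of the lists are read against these. Of 15 measured genes of gamma-tubulin and nucleation, JQ1 at 48 h raised 7 and lowered 6 (median 0.12, against 0.02 over all genes). Pericentrin (Pcnt), a centrosome scaffold, rose by 0.67 and Cdk5rap2, which anchors gamma-tubulin complexes, fell by 1.29. Of 19 genes of tubulin folding, 10 rose and 5 fell (median 0.09). The cofactor Tbcc, which helps to complete the dimer, rose by 0.63 and Pdcl3, a partner of the CCT chaperonin, fell by 0.77. At 6 h JQ1 raised 6 and lowered 4 of the nucleation genes and raised 4 and lowered 6 of the folding genes. The shares called were 86.7% (48 h) and 66.7% (6 h) of the nucleation genes and 78.9% and 52.6% of the folding genes, the last close to that of all genes.

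Of 11 genes of tubulin mRNA autoregulation, JQ1 raised 5 and lowered 2 at 48 h (median 0.17) and raised 5 and lowered 4 at 6 h (median 0.10). The CCR4-NOT subunits Cnot10 and Cnot11 rose by 0.48 and 0.51 at 48 h and Cnot6l, a deadenylase, fell by 0.34. At 6 h Scaper fell by 0.43 and Ttc5 by 0.30. Of 16 genes of tubulin tail modification, 7 rose and 4 fell at 48 h (median 0.12), and again 7 rose and 4 fell at 6 h (median 0.09). The shares called were 63.6% (48 h) and 81.8% (6 h) of the autoregulation genes, the first close to that of all genes, and 68.8% of the tail modification genes at both times. Ttl, the ligase that restores the tyrosine, rose by 0.36 at 48 h and 0.37 at 6 h. Vash2, which removes it, fell by 0.64 at 48 h and its relative Vash1 rose by 0.36.

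Of 23 microtubule stabilisers and end binders, 9 rose and 8 fell with JQ1 at 48 h (median 0.03), and 8 rose and 6 fell at 6 h (median 0.02). Map2, a lattice-binding protein, averaged 7.43 with JQ1 and 5.74, under the dim limit, with DMSO at 48 h. Map1b, which binds microtubules in growing neurites, fell by 0.94. Of 12 destabilising and severing genes 1 rose and 5 fell at 48 h (median -0.18), and 4 rose and 2 fell at 6 h (median -0.02). That is 50% called at each time, under the share of all genes, against 73.9% (48 h) and 60.9% (6 h) of the stabilisers and end binders. The severing enzyme Spast rose by 0.74 at 48 h, whereas Stmn1, which sequesters dimers, fell by 1.04 and the mitotic depolymerase Kif2c by 1.87.

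Of 12 actin isoforms and intermediate filament genes 2 rose and 8 fell at 48 h (median -0.30), and 6 rose and 3 fell at 6 h (median 0.14), or 83.3% and 75.0% called. The keratin Krt18 fell by 2.50 and smooth muscle actin, Acta2, by 1.05 at 48 h, whereas desmin, Des, rose by 0.28. In the hypertrophy panel of 6 genes 1 rose and 3 fell at 48 h, a share of 66.7%, and 50% were called at 6 h. Nppb, a natriuretic peptide, fell by 0.90, Myh7, the slow myosin heavy chain, by 0.39 and Nppa, the other natriuretic peptide, by 0.19. Atp2a2, the calcium pump of the sarcoplasmic reticulum, rose by 0.13. Skeletal actin, Acta1, differed by 0.02 and Myh6, the fast heavy chain, by 0.00 without passing. At 6 h 1 of the 6 rose, Acta1 by 0.51, and 2 fell, Myh7 by 0.46 and Atp2a2 by 0.13. Nppa (0.01), Nppb (0.07) and Myh6 (0.04) did not pass.

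The cell division list, like the others, was chosen with earlier results of these data known. At 48 h it moved as a whole. JQ1 lowered 22 of its 22 measured genes at 48 h (median -1.77), where 59.6% of all genes were called. At 6 h JQ1 lowered 15 and raised 1 (median -0.37), or 72.7% called, against 54.3% of all genes. Ccnb1 (cyclin B1) fell by 2.93, the spindle midzone protein Prc1 fell by 2.34 and Racgap1, needed for cytokinesis, fell by 2.32 at 48 h. With PE in vehicle, 22 of 22 were higher at 48 h than without PE (median 1.17), where 44.1% of all genes were called. The log2 sum of the list was 12.30 to 12.35 with JQ1 at 48 h and 14.28 to 14.34 with DMSO. At 48 h the list fell with JQ1, as 6 of the 7 isotypes did. At 6 h, where the list's median was -0.37, 4 isotypes were higher and 2 lower. Against no PE, JQ1 at 48 h gave a median of -0.64 for the list, with 2 isotypes higher and 4 lower. The part of the cell division genes in the isotype result was not tested.

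**Figure D4:**
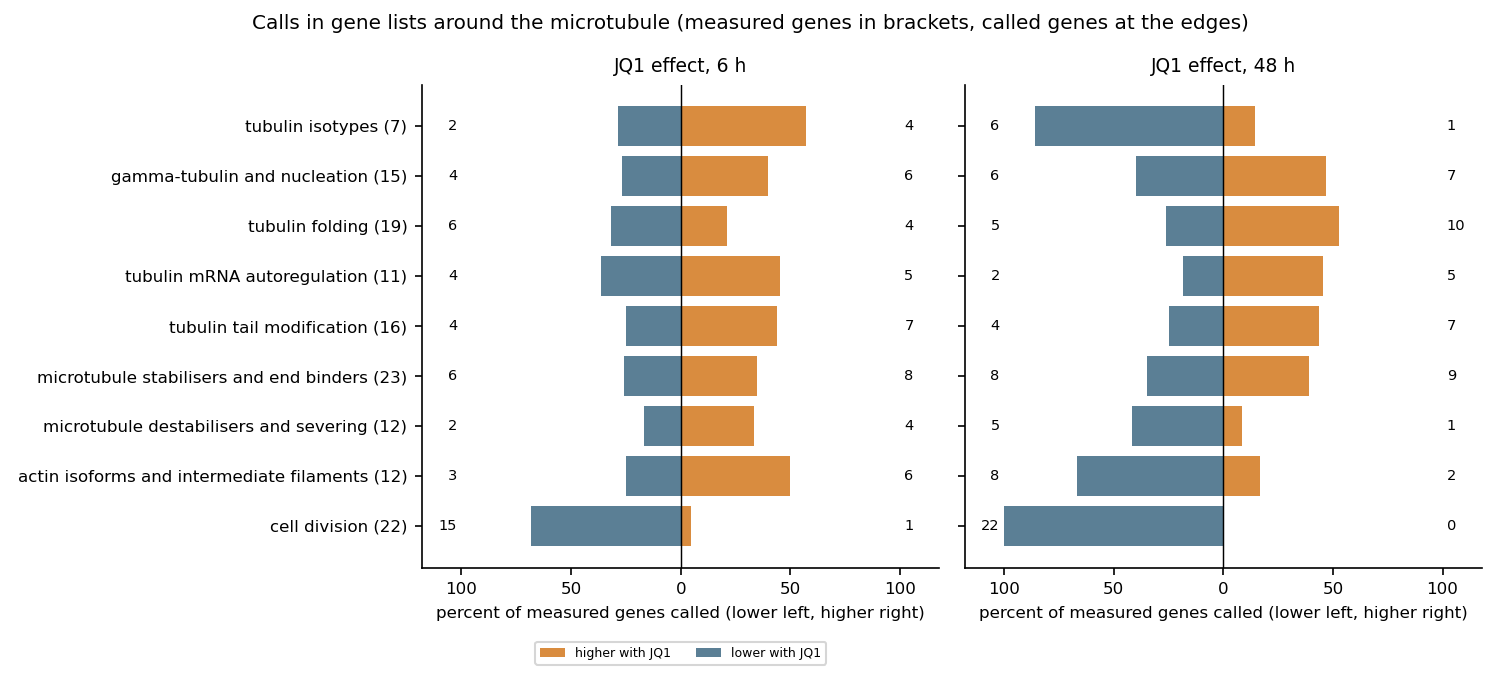
Share of measured genes called lower (left of 0) and higher (right of 0) with JQ1 at 6 h and at 48 h, for the tubulin isotypes and 8 gene lists, with the number of called genes at the edges. At 48 h the isotypes (6 of 7 lower) and the cell division genes (22 of 22 lower) lie mostly to the left. The lists of nucleation, folding, autoregulation and tail modification have more genes to the right at 48 h, and at 6 h so do all of these but folding (4 higher, 6 lower).

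The cells carried their defining markers: 12 of 12 cardiomyocyte markers were above the dim limit in every group, with a log2 sum between 17.26 and 17.47. With JQ1 at 48 h 4 of them rose and 6 fell (17.26 to 17.30 with JQ1, 17.45 to 17.46 with DMSO), and at 6 h 2 rose and 5 fell (17.33 to 17.35 with JQ1, 17.40 to 17.42 with DMSO). Fibroblast markers moved with JQ1: 12 of 12 fell at 48 h (median -1.29), with a log2 sum of 14.50 to 14.56 with JQ1 and 15.46 to 15.50 with DMSO, and 8 fell at 6 h (15.41 to 15.43 with JQ1, 15.64 to 15.67 with DMSO). Of the fibroblast markers only Tcf21 was under the dim limit in the JQ1 groups. Of 10 smooth muscle and pericyte markers 7 fell and 1 rose at 48 h (14.23 to 14.29 with JQ1, 14.44 to 14.48 with DMSO). At 6 h 6 of them fell and 3 rose, while their log2 sum was 14.46 to 14.47 with JQ1 and 14.35 to 14.39 with DMSO. Endothelial markers (7 of 11 lower, 9.52 to 9.59 with JQ1 and 10.22 to 10.34 with DMSO) and leukocyte markers (4 of 11 lower, 9.74 to 9.89 with JQ1 and 10.25 to 10.36 with DMSO) were low, with Pecam1, Vwf and Ptprc under the dim limit in every group. At 48 h 83.3% of the cardiomyocyte, 80.0% of the smooth muscle, 63.6% of the endothelial and 36.4% of the leukocyte markers were called. The share of all genes was 59.6%, close to the endothelial one. At 6 h the shares were 58.3% of the cardiomyocyte, 66.7% of the fibroblast and 90.0% of the smooth muscle markers. Endothelial and leukocyte markers had 45.5% each at 6 h, and all genes 54.3%.

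Of 12 measured neuron and Schwann cell markers 0 rose and 5 fell with JQ1 at 48 h, and 3 rose and 3 fell at 6 h. That is 41.7% and 50% called, against 59.6% and 54.3% of all genes. Their log2 sum was 9.18 to 9.21 with JQ1 and 9.52 to 9.54 with DMSO at 48 h, and 9.51 to 9.58 with JQ1 and 9.72 to 9.73 with DMSO at 6 h. With JQ1 at 48 h 10 of the 12 were under the dim limit, and Stmn2, Nefl, Elavl4 and Snap25 were under it in every group. The smooth muscle and pericyte list includes Des and Acta2, and whether their RNA came from myocytes or other cells was not tested. The part of the cell type markers in the isotype results was not tested either.

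The genes most like the most variable isotypes were found by Pearson correlation over the 14 arrays, as a description, since the arrays share groups. Nearest to Tubb2a were Slc25a24 (r = 0.985), a mitochondrial carrier, Nars1 (0.984), an asparaginyl-tRNA synthetase, Bace2 (0.978), a protease, and Klf4 (0.976), a transcription factor. Klf4 averaged 11.37 (JQ1 6 h), 11.27 (DMSO 6 h), 10.11 (JQ1 48 h), 10.85 (DMSO 48 h) and 11.03 (no PE), so it too was lowest with JQ1 at 48 h. The most opposed were B4gat1 (-0.992) and Mrps23 (-0.991). Nearest to Tubb6 were the chaperone genes Bag2 (0.987) and Dnajb5 (0.986), then Arhgef3 (0.983) and Efhd2 (0.982), and the most opposed were Zcchc24 (-0.992) and Fbxo3 (-0.990). Dnajb5 averaged 9.39 both with JQ1 at 48 h and without PE, as Tubb6 had nearly equal means in those groups. Among the isotypes, Tubb6 correlated with Tubb2a at 0.798 and Tuba4a at 0.793, and with Tuba8 at 0.081.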

How the data were processed

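Biotin-labelled total RNA went onto Affymetrix rat arrays, per the labels. The authors deposited 20223 probe sets as log2 values from 2.71 to 14.70, with array medians of 7.28 to 7.43; that they were normalized between arrays is inferred from these values alone. How probes were summarised and background-corrected is not stated in the sources used. Limma is listed in the submitters' processing notes with no role. By the platform annotation 18510 probe sets had 1 symbol, 305 had several, 1402 had none and 6 were controls. Symbols were updated through RefSeq (GRCr8): 18461 matched by gene identifier and 1 by accession, and 48 kept the platform's name. The brightest probe set stood for each of 13184 genes, 3797 of which had several. Probe sets whose mean lay under the 30th percentile of gene means (log2 6.23) were called dim.

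All 14 arrays entered 1 limma 3.58.1 fit (R 4.3.3, lmFit and eBayes) with a mean per group. Tests were two-sided, with Benjamini-Hochberg adjustment over all genes and a threshold of 0.05. Errors are standard errors. The number of arrays limits the precision, with a median SE of 0.060 for 3 against 3 arrays and 0.068 for 3 against 2. Within-group correlations were 0.9976 to 0.9986. Same-numbered arrays correlated little in their deviations from the group means, which does not settle whether they shared a culture. The fit was also run on simulated data with independent noise and few changed genes, which does not show how it behaves on these data.

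The members, gene lists and marker lists were chosen with earlier results of these data known. Named genes were all isotypes, up to 3 genes per list, direction and comparison with the smallest adjusted p, the hypertrophy panel, and the genes nearest and most opposed to Tubb2a and Tubb6. From these the text takes examples. Alternatives were the mean of all probe sets, no dim genes, repeated quantile normalization, centring on the array median, a trended robust fit, only the groups compared, a replicate block, and leaving out each array. Promoter sequences came from RefSeq.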

Additional observations from a re-analysis of the deposited data

Results flagged for a closer look

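For 6 isotypes the JQ1 effect at 48 h differed from that at 6 h by limma's test of the difference itself (48 h minus 6 h, log2 scale). That test called 38.8% of all genes, 20.4% with a positive and 18.3% with a negative difference. The differences were -1.19 for Tubb2a, -1.01 for Tuba4a, -0.93 for Tubb6, -0.77 for Tubb5, -0.37 for Tuba8 and -0.28 for Tubb3. Of the 14 fits that left out 1 array, 14 kept the call for each of the first 4, 4 for Tuba8 and 7 for Tubb3. Both time points rest on 2 or 3 arrays a group, and the 6 h effect shares the 2 DMSO arrays with the PE comparison.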

How the results depend on the processing

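Over 13184 genes, and for the isotypes, the number called stayed within 1.5 times its reported value in 376 of 378 recalculations. The exceptions were the isotypes called with JQ1 at 6 h, 3 without the second DMSO array and 3 without the third JQ1 array at 6 h, with 3 to 6 over the fits that left out 1 array. Of the values for single isotypes 1246 kept their direction and their side of the threshold, 45 lost the call, 26 gained it and 6 changed sign. The sign changes were in values near 0. Tuba8 at 48 h against 6 h in vehicle was -0.01 with a replicate block and between -0.02 and 0.03 when 1 array was left out. Tubb6 with JQ1 at 48 h against no PE was 0.06 with the mean of its probe sets and 0.06 after centring. The cause was not tested.

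Arrays with the same replicate number were correlated on their deviations from the group means. The correlations ran from -0.27 to 0.18 over 26 pairs, 3 of them over 0.1. Deviations from the mean of so few arrays are not independent. The check therefore cannot settle whether arrays with the same replicate number shared a culture. With the number as a replicate block, 6 isotypes were called with JQ1 at 6 h, 7 at 48 h, 6 with PE at 6 h and 4 with PE at 48 h, and Tubb2a differed by -1.08 with JQ1 at 48 h. Of all 13184 genes, the block fit called 6929, 7728, 4554 and 5606 in the same order. The block ended the call of Tuba8 in the difference of JQ1 effects (-0.36, limma adjusted p = 0.0778) and gave 1 to Tubb2b with JQ1 at 6 h against no PE (-0.14, adjusted p = 0.0472). The dim second probe sets of Tubb3 and Tubb6 limit what their means can show.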

Other observations

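Single genes around the microtubule differed between vehicle cells with PE and those without, where 37.2% of all genes were called at 6 h and 44.1% at 48 h. Hdac6, a deacetylase that acts on tubulin, rose by 0.72 at 6 h (SE 0.063, limma adjusted p = 2.1e-06) and by 0.68 at 48 h (SE 0.056, 7.9e-07). Ttl rose by 0.14 at 6 h and 0.29 at 48 h, and Svbp, the partner of the vasohibins that remove tyrosine, fell by 0.30 and 0.48 at those times. In the tail modification list 2 of 16 rose and 4 fell at 6 h, and 5 rose and 1 fell at 48 h, or 37.5% called at each time, close to all genes at 6 h and under them at 48 h. Of the intermediate filament and actin genes 8 of 12 rose and 1 fell at each time (75.0% called), with synemin (Synm) higher by 0.97 at 6 h and 1.74 at 48 h and vimentin (Vim) lower by 0.23 and 0.26.

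Of 15 nucleation genes 0 rose and 7 fell with PE at 6 h, while 8 rose and 4 fell at 48 h (46.7% and 80.0% called). Of 12 destabilising genes 2 rose and 3 fell at 6 h, and 8 rose and 0 fell at 48 h (41.7% and 66.7% called), where Kif2c rose by 1.54 and Stmn1 by 0.43. Of 11 autoregulation genes 1 rose and 4 fell at 6 h, and 1 rose and 6 fell at 48 h (45.5% and 63.6% called), with Scaper lower by 0.49 and 0.48. Of 19 folding genes 6 rose and 0 fell at 6 h, and 4 rose and 2 fell at 48 h, or 31.6% called at each time, under the share of all genes. Of 23 stabilisers 9 rose and 8 fell at 6 h, and 9 rose and 4 fell at 48 h (73.9% and 56.5% called), with Mtus1 lower by 0.91 and 0.83. PE and time in culture cannot be told apart here.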
